A study of Mus musculus with 38 samples.

Results

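The genes described here are 9 writers, erasers and readers of DNA methylation, taken by symbol from the deposited tables: *Dnmt1*, *Uhrf1*, *Dnmt3a*, *Dnmt3b*, *Tet1*, *Tet2*, *Tet3*, *Tdg* and *Mbd3*. All 9 members were present among the 25965 genes of the RNA table and among the 25888 genes with a promoter window. The samples were neural stem/progenitor cells (NSPCs) of the mouse subventricular zone (SVZ), grown as neurospheres in medium with EGF and FGF and harvested at passage 2. Wild-type male C57BL/6J/Babr mice were young adult (3 months) or aged (18 months), with 3 derivations per age, made on different days from 5 pooled mice each, for RNA sequencing, BS and oxBS sequencing and histone ChIP. A further young adult and a further aged RNA library came from C57BL/10 mice of the same ages, kept in another facility. A neurosphere culture selects the cells that divide in growth factors, so that these are cultured cells and not the tissue, and a lower value in such bulk RNA cannot tell fewer cells of a type from less RNA per cell.

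The cytosine of a CpG is methylated to 5-methylcytosine (5mC) by the methyltransferases Dnmt3a and Dnmt3b, and Dnmt1 copies the mark to the new strand after replication, led there by Uhrf1, which binds hemimethylated CpGs. The dioxygenases Tet1, Tet2 and Tet3 oxidize 5mC to 5-hydroxymethylcytosine (5hmC) and further, and the glycosylase Tdg removes the more oxidized forms for repair. Mbd3 is a subunit of the chromatin remodelling complex NuRD. In the brain, Dnmt3a and the TET enzymes are known for roles in adult neurogenesis, and 5hmC is known to be more abundant in neurons than in dividing cells.

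The promoters of the 9 genes were matched by symbol to 14 RefSeq promoter sequences of GRCm38.p6, each of 300 bases, with all 9 genes matched. They held between 2 and 57 CpGs, against a median of 7 over all 32851 promoters of the table. The sequences that follow show the starts that differed in 5mC, a CpG-poor methylated start and a CpG-rich unmethylated start of *Dnmt1* and an unmethylated and a partly methylated start of *Dnmt3a*, and beside them the unmethylated promoters of *Tet1* and *Tet2*. CpGs are in capitals, and each sequence reads along the strand of the gene.
Dnmt1 upstream start, chr9:20959839-20960138 (minus strand): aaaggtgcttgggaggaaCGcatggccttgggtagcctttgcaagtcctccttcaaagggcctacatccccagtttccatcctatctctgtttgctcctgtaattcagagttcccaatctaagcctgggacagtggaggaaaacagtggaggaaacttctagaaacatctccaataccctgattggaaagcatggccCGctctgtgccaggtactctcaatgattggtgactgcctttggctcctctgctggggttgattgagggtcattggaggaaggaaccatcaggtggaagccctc
Dnmt1 downstream start, chr9:20952574-20952873 (minus strand): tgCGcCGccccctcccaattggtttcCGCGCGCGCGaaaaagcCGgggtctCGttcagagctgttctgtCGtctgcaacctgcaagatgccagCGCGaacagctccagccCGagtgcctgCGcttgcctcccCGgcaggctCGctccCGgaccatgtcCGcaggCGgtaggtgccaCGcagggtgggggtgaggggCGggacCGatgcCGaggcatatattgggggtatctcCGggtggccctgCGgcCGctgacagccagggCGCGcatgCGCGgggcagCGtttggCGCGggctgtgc
Dnmt3a upstream start, chr12:3806910-3807209 (plus strand): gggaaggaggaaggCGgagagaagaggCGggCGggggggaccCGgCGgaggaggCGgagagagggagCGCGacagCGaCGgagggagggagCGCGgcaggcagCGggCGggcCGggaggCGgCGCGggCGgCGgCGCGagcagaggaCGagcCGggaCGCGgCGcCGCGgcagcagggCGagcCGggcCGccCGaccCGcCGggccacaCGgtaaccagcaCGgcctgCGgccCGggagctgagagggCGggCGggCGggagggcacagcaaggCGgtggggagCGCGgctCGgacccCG
Dnmt3a internal start, chr12:3891494-3891793 (plus strand): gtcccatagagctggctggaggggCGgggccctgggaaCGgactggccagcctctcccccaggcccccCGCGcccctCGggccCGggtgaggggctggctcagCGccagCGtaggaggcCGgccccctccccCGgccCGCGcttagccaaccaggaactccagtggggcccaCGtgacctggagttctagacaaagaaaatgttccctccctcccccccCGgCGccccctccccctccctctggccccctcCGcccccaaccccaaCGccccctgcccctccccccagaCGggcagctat
Tet1, chr10:62887275-62887574 (minus strand): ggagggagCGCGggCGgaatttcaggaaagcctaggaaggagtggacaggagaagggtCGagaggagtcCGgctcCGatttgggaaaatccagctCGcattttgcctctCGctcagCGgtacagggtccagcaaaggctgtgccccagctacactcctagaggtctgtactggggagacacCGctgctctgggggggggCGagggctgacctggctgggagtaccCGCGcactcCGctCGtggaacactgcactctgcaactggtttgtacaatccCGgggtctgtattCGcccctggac
Tet2, chr3:133544341-133544640 (minus strand): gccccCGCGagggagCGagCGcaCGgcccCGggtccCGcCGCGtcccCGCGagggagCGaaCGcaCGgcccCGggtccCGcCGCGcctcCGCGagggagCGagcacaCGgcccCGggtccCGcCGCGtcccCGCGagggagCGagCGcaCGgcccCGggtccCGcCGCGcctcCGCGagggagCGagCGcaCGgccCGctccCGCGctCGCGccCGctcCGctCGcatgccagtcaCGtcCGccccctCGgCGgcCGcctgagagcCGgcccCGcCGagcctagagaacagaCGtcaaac

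The upstream *Dnmt1* sequence held 2 CpGs, and the oxBS calls on it, which read 5mC alone, were methylated in 10 of 10 cases in young and 8 of 8 in aged NSPCs, pooled over the 3 libraries of each age. The downstream *Dnmt1* sequence held 33 CpGs, with 0 of 80 calls methylated in young and 0 of 104 in aged NSPCs. *Dnmt1* is known to use a separate upstream promoter in oocytes. The upstream *Dnmt3a* sequence shown held 47 CpGs, with 0 of 74 and 0 of 70 calls methylated. The internal *Dnmt3a* sequence, at the start from which the short isoform Dnmt3a2 of embryonic and germ cells is known to be made, held 18 CpGs, with 4 of 18 calls methylated in young adult (22.2%) and 6 of 34 in aged NSPCs (17.6%). The *Tet2* sequence held 57 CpGs, more than 99.8% of all promoters in the table, with 0 of 135 and 0 of 100 calls methylated. Over all 14 sequences, a single methylated call at *Dnmt3b* and a single one at *Tet3* were the only ones outside the upstream *Dnmt1* and the internal *Dnmt3a* sequences.

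The ChIP table gave, for 59 annotated start sites of the 9 genes, a log2 RPM (reads scaled to the size of the library) of H3K4me3, H3K27me3 and Input in a window of about 5 kb, as 1 value per age over the replicates, so that no test between ages was made. H3K4me3 marks active promoters and H3K27me3 is the mark of Polycomb repression. In 27 of the 59 windows H3K4me3 was above a log2 RPM of 4, and these included at least 1 window of each of the 9 genes. Within 500 bp of those 27 start sites 5mC had a median of 0.423% of the pooled oxBS calls, with a highest value of 15.8% at the first base annotated for *Dnmt3a*, and was under 10% at 26 of them. At the other 32 start sites, whose H3K4me3 ranged from -1.36 to 2.45, 5mC ranged from 26.4% to 96.9% with a median of 85.3%. Many of the windows overlap and share their reads, so that the 59 points are not independent.

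**Figure D1:**
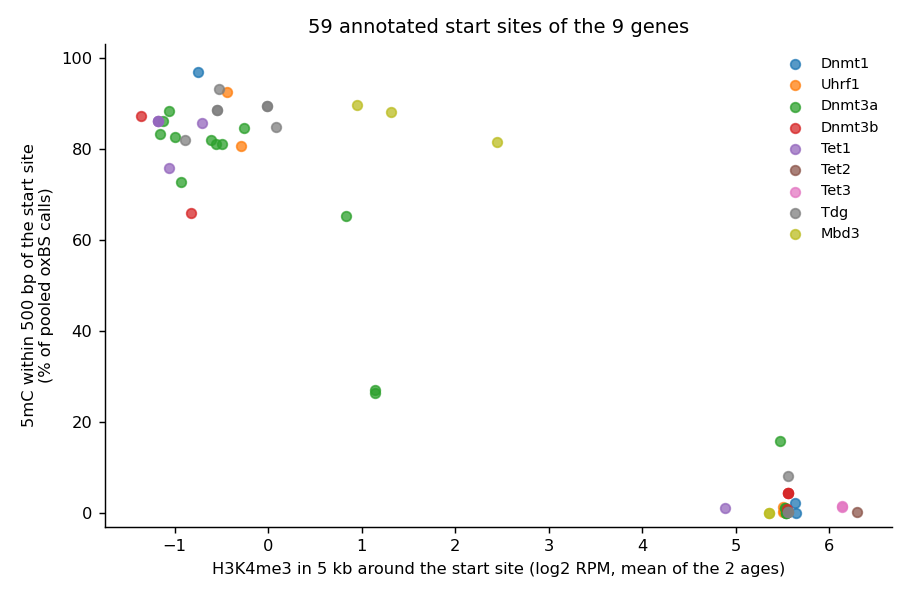
H3K4me3 in the 5 kb window (log2 RPM, mean of the 2 ages, x axis) against 5mC within 500 bp (percent of the pooled oxBS calls of 6 libraries, y axis) for the 59 annotated start sites, 1 point each, coloured by gene. The points fall into a group of 27 with high H3K4me3 and 5mC of at most 15.8%, and a group of 32 with low H3K4me3, in which the internal *Dnmt3a* starts have the lowest 5mC (26.4%).

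*Dnmt1* and *Tet1* showed which of their annotated starts carried H3K4me3. At the downstream *Dnmt1* start (20952623 on chromosome 9) H3K4me3 was 5.51 in young and 5.77 in aged NSPCs, and 0 of 363 oxBS calls within 500 bp were methylated (95% Clopper-Pearson interval from 0 to 1.01%). At the upstream *Dnmt1* start (20959888) H3K4me3 was -1.12 and -0.38, and 31 of 32 calls were methylated (interval from 83.8% to 99.9%). This upstream window also had the highest H3K27me3 of the 59, 1.91 in young and 1.62 in aged NSPCs, above its Input of 1.04 and 1.11. Intervals here cover counting error only. They take the pooled calls of all oxBS libraries as independent, so that the spread between derivations is left out. The reads also carried no molecular identifiers. For *Tet1*, the window around position 62865304 on chromosome 10 held H3K4me3 of 4.86 and 4.91, while the windows around 62880014 and 62899118 held -0.28 and -0.56 in young and -1.14 and -1.56 in aged NSPCs. Within 500 bp 5mC was 1.13% of 177 calls at the *Tet1* window with H3K4me3, and 85.7% and 75.8% at those without. The *Tet1* sequence printed above lies outside all of these windows and was also unmethylated, with 0 of 34 calls in young and 0 of 39 in aged NSPCs, so that H3K4me3 at that start was not measured here.

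The internal *Dnmt3a* start (3891728 on chromosome 12) had the lowest 5mC of the 32 starts with low H3K4me3, together with the start 16 bases from it. Its H3K4me3 was 1.13 in young and 1.15 in aged NSPCs, and 51 of 188 calls within 500 bp were methylated (27.1%, interval from 20.9% to 34.1%). By age these were 24.3% of 74 and 28.9% of 114 calls. The *Dnmt3a* start with the most H3K4me3 (3807160) had H3K4me3 of 5.37 and 5.71 and 0 of 534 methylated calls. *Dnmt3b* was the member whose H3K4me3-bearing promoter had the most H3K27me3, with a log2 RPM of 1.49 in young and 1.61 in aged NSPCs beside an Input of 1.47 and 1.26, together with H3K4me3 of 5.42 and 5.69. *Dnmt3b* was also the member with the least RNA.

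For the comparison of the ages, each gene was represented by its window with the most H3K4me3. By the rule of a 1.5-fold difference with a log2 RPM above 1, 0 of the 9 members differed in H3K4me3, against 0.212% of the 25888 windows. In H3K27me3 likewise 0 of 9 passed, against 1.5% of the windows, but *Dnmt3b* was the only member above a log2 RPM of 1, so that the floor of the rule kept out the other 8. H3K4me3 was higher in the aged value at all 9 members, by 0.049 (*Tet1*) to 0.34 (*Dnmt3a*) in log2 RPM, but it was higher in 98.5% of the 12966 windows with H3K4me3 above 4, with a median difference of 0.22, and the difference turned negative at *Tet1*, *Tet2* and *Tet3* once the values of the ages were quantile normalized. Relative to that median *Tet1* was the member furthest below and *Dnmt3a* the furthest above. H3K27me3 was lower in the aged value at 7 of the 9 members, with a median of -0.57 over the members and -0.069 over the 12966 windows, of which 43.0% were higher. H3K27me3 lay below Input in both ages at 8 of the 9 members, all but *Dnmt3b*. The largest of these differences was -0.81 at *Tdg*, from -0.25 to -1.06, in a window whose Input was 1.17 and 0.89.

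RNA levels were read as log2 RPM and, to compare genes with each other, per kilobase of exon. In the 6 C57BL/6J/Babr libraries *Mbd3* was the highest per length, with a log2 RPM per kb of 5.68 ± 0.085 (SD, n = 6), followed by *Tdg* (4.69 ± 0.12) and *Dnmt1* (4.51 ± 0.11), whose ranges over the libraries overlapped. *Uhrf1* (3.97 ± 0.11), *Dnmt3a* (3.46 ± 0.065), *Tet3* (3.09 ± 0.10), *Tet2* (1.83 ± 0.13), *Tet1* (0.32 ± 0.15) and *Dnmt3b* (-1.04 ± 0.15) came next in that order, each with a range that did not overlap that of its neighbours. The level per length was thus higher for *Dnmt3a* than for *Dnmt3b*, and among the dioxygenases it went from *Tet3* through *Tet2* to *Tet1*. Among 14858 genes tested for age, all 9 members passed the filter on low values, a mean log2 RPM of at least -2.

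**Figure D2:**
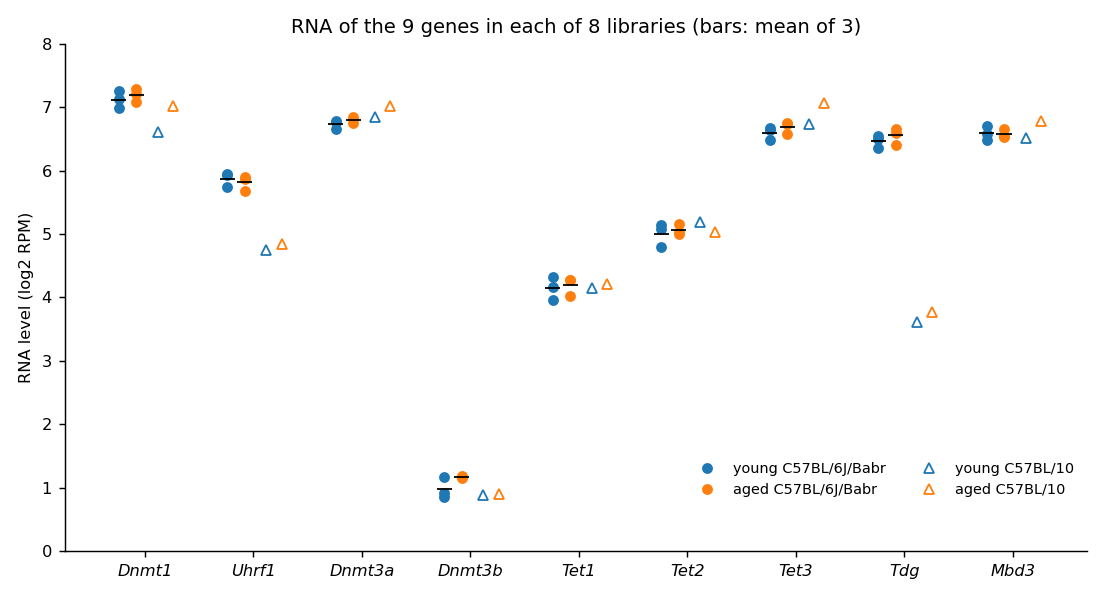
RNA level (log2 RPM, y axis) of the 9 genes (x axis) in each of 8 libraries, with circles for C57BL/6J/Babr, triangles for C57BL/10, blue for young adult, orange for aged and a bar at the mean of 3 derivations. The ages overlap for every gene in C57BL/6J/Babr, and *Tdg* and *Uhrf1* lie lower in both C57BL/10 libraries.

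The expression of these genes was then compared between young adult and aged NSPCs. None of the 9 members passed an adjusted p of 0.05 in limma, and 0% of the 14858 genes did (258 had an unadjusted p under 0.05, and edgeR called 0 genes and DESeq2 4, with 257 and 219 at an unadjusted p under 0.05). With the replicate number as a block, 0 of 9 members and 0.498% of all genes passed. The 3 young adult and 3 aged libraries overlapped for all 9 members, while they did not overlap for 5.2% of the genes. The median log2 fold change, aged minus young adult, was 0.064 over the members and 0.0015 over all genes tested. The p-values measure the spread between derivations. Unless the block is named, the SE of an RNA age difference is that of the limma fit without it. The median residual SD over the genes was 0.173 without the block and 0.108 with it.

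Of the maintenance genes, *Dnmt1* had a log2 RPM of 7.25, 7.13 and 6.99 in young adult replicates 1, 2 and 3 and of 7.29, 7.22 and 7.09 in the aged ones. The aged value was higher in all 3 replicate numbers, by a log2 fold change of 0.076 (SE 0.099, limma adjusted p = 1.00). *Uhrf1*, the cofactor that recruits Dnmt1, had 5.93, 5.95 and 5.74 in young and 5.87, 5.90 and 5.69 in aged NSPCs. It was lower in all 3 aged replicates, by -0.067, -0.049 and -0.049. The log2 fold change was -0.055 (SE 0.097 in limma without the block). With the replicate block the SE was 0.064 and the limma adjusted p was 0.89. In both genes replicate 3 was the lowest library of each age.

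Of the *de novo* methyltransferases, *Dnmt3a* had a log2 RPM of 6.66, 6.79 and 6.78 in young and 6.75, 6.82 and 6.85 in aged ones, a log2 fold change of 0.064 (SE 0.079). *Dnmt3b* had 0.91, 1.16 and 0.85 in young and 1.15, 1.16 and 1.19 in aged NSPCs, resting on 38 to 90 reads per library, and a log2 fold change of 0.20 (SE 0.19). The aged *Dnmt3b* values were close together and the young adult replicate 2 lay among them. Both genes overlap an antisense gene (*Dnmt3aos* and *Dnmt3bos*), whose reads cannot be told apart in a library without strand. The same holds for *Tet2* (*Gm42567*), *Tet3* (*B230319C09Rik*) and *Tdg* (*Glt8d2*).

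Of the dioxygenases, *Tet1* had a log2 RPM of 4.32, 4.16 and 3.95 in young and 4.27, 4.27 and 4.03 in aged ones, a log2 fold change of 0.047 (SE 0.13). *Tet2* had 5.15, 5.08 and 4.79 in young and 5.16, 5.00 and 5.03 in aged ones, a log2 fold change of 0.057 (SE 0.11). *Tet3*, the most abundant of them, had 6.67, 6.64 and 6.48 in young and 6.73, 6.75 and 6.58 in aged NSPCs. Its aged value was higher in all 3 replicate numbers, by 0.090 (SE 0.090), within the overlap of the ages. The limma adjusted p was 1.00 for each of the 3 genes, and 0.92, 0.90 and 0.79 for *Tet1*, *Tet2* and *Tet3* with the replicate block.

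The glycosylase gene *Tdg* had a log2 RPM of 6.55, 6.51 and 6.35 in young and 6.60, 6.66 and 6.41 in aged ones, a log2 fold change of 0.088 (SE 0.098). *Mbd3* had 6.49, 6.71 and 6.58 in young and 6.66, 6.54 and 6.53 in aged ones, a log2 fold change of -0.016 (SE 0.089). *Mbd3* was higher in 1 of 3 aged replicates and *Tdg* in all 3. In the C57BL/10 libraries, a single library per age and hence with no test, the aged minus young adult difference in log2 RPM was 0.40 for *Dnmt1*, 0.33 for *Tet3*, 0.28 for *Mbd3*, 0.16 for *Dnmt3a*, 0.15 for *Tdg*, 0.11 for *Uhrf1*, 0.065 for *Tet1*, 0.025 for *Dnmt3b* and -0.17 for *Tet2*. It had the sign of the C57BL/6J/Babr difference in 6 of the 9 genes, all but *Uhrf1*, *Tet2* and *Mbd3*.

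The other genes of the pathway were read from 7 lists, of which 91 genes were tested. None passed an adjusted p of 0.05 between the ages, in limma or with the replicate block, and none had an unadjusted p under 0.05 in limma. Of these 91 genes, 45 had a higher mean in aged NSPCs. Among the readers of methylated CpG (8 genes, median log2 fold change 0.091) the glycosylase *Mbd4* had 0.17 (SE 0.14). Among the partners of the methyltransferases (10 genes, median 0.032) the lowest p-values belonged to *Zfp57*, which keeps imprints methylated (0.38, SE 0.31), and the deubiquitinase *Usp7* (0.097, SE 0.089). Among base excision and proposed demethylation factors (16 genes, median 0.019) *Gadd45g* had 0.25 (SE 0.13) and the cytidine deaminase *Apobec1* -0.23 (SE 0.12).

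The NuRD subunits other than Mbd3 (13 genes) had a median log2 fold change of 0.037, with *Gatad2a* at 0.12 (SE 0.095) and *Mta2* at 0.075 (SE 0.073). The genes of methyl donor supply (12 genes) had a median of -0.016, with the methionine synthase *Mtr* at -0.056 (SE 0.079) and its reductase *Mtrr* at -0.13 (SE 0.12). The genes of TET cofactor supply and partners (18 genes) had a median of -0.095, with *Idh2*, which makes 2-oxoglutarate in mitochondria, at -0.16 (SE 0.098) and the ascorbate transporter *Slc23a1* at 0.59 (SE 0.31). The DNA replication genes (15 genes) had a median of -0.019, with the cyclin *Ccne1* at -0.14 (SE 0.10) and *Rrm2*, a subunit of ribonucleotide reductase, at -0.14 (SE 0.12). Over these lists the medians lay on both sides of zero, and that of all genes was 0.0015.

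The levels of 5mC and 5hmC were set beside these genes. Over all calls of a library 5mC was 70.5%, 70.8% and 71.8% in young adult replicates 1, 2 and 3 and 70.8%, 71.3% and 71.9% in the aged ones, higher in the aged library in 3 of 3 replicate numbers by a mean of 0.313 percentage points (exact permutation test, two-sided, p = 0.5, and p = 0.25 when paired by number, the smallest that 3 pairs can give). 5hmC, taken as BS minus oxBS of the same number, was 1.02, 0.994 and 0.905 percentage points in young and 0.758, 0.958 and 0.932 in aged NSPCs, lower in the aged library in 2 of 3 numbers (difference -0.0884, exact permutation test, two-sided, p = 0.3). With 3 against 3 derivations this test cannot go below 0.1. The ages overlapped in both measures.

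The RNA levels of the 9 genes were compared with these global levels over the 6 derivations, as 18 relations. None passed an adjusted p of 0.05, and the lowest was 0.33. The relation of largest size was that of *Uhrf1* and 5mC, with a Pearson r of -0.911 (exact permutation p = 0.0194, adjusted 0.33) and a Spearman rho of -0.886 (exact permutation p = 0.0333, adjusted 0.525). The permutations shuffled all 6 derivations freely, so that these p-values ignore the pairing by replicate number. Without the 2 derivations farthest from the median *Uhrf1* level, r was -0.407 over the 4 derivations and the narrower range of levels that were left. Replicate 3 had the highest 5mC in both ages and also the lowest *Dnmt1*, *Uhrf1*, *Tet1*, *Tet3* and *Tdg* RNA, and 8 of the 9 genes had a negative r with 5mC. Taken as deviations from the mean of each replicate number, which leave only the 3 differences between the aged and young libraries of a number, r ran from -0.835 (*Uhrf1*) to 0.968 (*Tdg*) and kept its sign in 4 of the 9 genes, turning positive in *Dnmt1*, *Dnmt3b*, *Tet1*, *Tet3* and *Tdg*.

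Methylation at the genes themselves was compared between the ages. For 5mC in the 5 kb promoter windows, 0 of 9 members were called, and 0% of the 23798 windows (1291 had an unadjusted p under 0.05 in the quasi-binomial model). The members held between 3.37% (*Tet2*) and 33.0% (*Tet1*) of pooled calls methylated, against a median of 33.2% over all windows. The libraries of both ages did not overlap for 1 member, *Tet3*, against 10.5% of the windows. There 5mC was 7.45%, 5.80% and 10.3% in young and 14.4%, 10.9% and 13.2% in aged NSPCs, over 69 to 129 calls per library, a difference of 4.41 percentage points (unadjusted p = 0.163 and adjusted p = 0.959 in the quasi-binomial model across all windows). Within 500 bp of the *Tet3* start the difference was -1.10 percentage points. That stretch, with 1.38% 5mC, gave 160 of the 289 young adult calls and 129 of the 346 aged calls of the *Tet3* window. *Dnmt1* had the lowest p of the members, with 23.3%, 24.7% and 18.3% in young and 15.5%, 14.0% and 19.1% in aged ones, a difference of -6.47 percentage points (adjusted p = 0.946). In the BS calls of the *Dnmt1* window the difference was -1.06 percentage points, and within 500 bp of its start every oxBS call was unmethylated in both ages. That unmethylated stretch gave 141 of the 312 young adult oxBS calls and 222 of the 372 aged ones of the *Dnmt1* window. The part of these unequal shares of calls in the *Tet3* and *Dnmt1* differences was not tested.

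Across the gene bodies, from the first to the last annotated base, 0 of 9 members were called and 0% of 22284 genes (1061 had an unadjusted p under 0.05). 5mC was lowest in *Mbd3* (37.5% of pooled calls), the shortest of the genes, followed by *Uhrf1* (53.0%), and highest in *Dnmt1* (75.8%), with a median of 68.6% over all genes. *Uhrf1* was the 1 member whose libraries did not overlap between the ages, against 9.85% of the genes. It held 65.8%, 54.0% and 56.9% 5mC in young and 45.2%, 51.8% and 48.0% in aged NSPCs, over 263 to 458 calls per library. The mean was 58.9% ± 6.2 in young and 48.3% ± 3.3 in the aged libraries (SD, n = 3 each), and the fitted difference of -9.89 percentage points had an unadjusted p of 0.0154 and an adjusted p of 0.993 in the quasi-binomial model across all genes. In the BS libraries, which read 5mC and 5hmC together, the difference at *Uhrf1* was -5.40 percentage points. Of the oxBS calls across *Uhrf1*, 20, 92 and 90 in young and 142, 44 and 91 in aged NSPCs lay within 500 bp of its start. There 0.418% of the pooled calls were methylated. The part of this uneven share of calls in the *Uhrf1* difference was not tested. The other gene body differences in the oxBS calls were -3.58 percentage points at *Tet3* (unadjusted p = 0.0691 in the quasi-binomial model), 4.48 at *Mbd3*, 3.26 at *Tdg* and -2.02 at *Dnmt1*, and between -0.69 and 1.68 at *Dnmt3a*, *Dnmt3b*, *Tet1* and *Tet2*. In the BS calls the sign was the opposite at *Tet3*, *Mbd3*, *Dnmt3a* and *Tet1*.

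5hmC across the gene bodies could not be resolved in these libraries. For 5hmC 0 of 9 members were called and 0% of 13925 genes (722 had an unadjusted p under 0.05 in limma). The pooled estimates ran from -3.40 percentage points at *Dnmt3b* to 3.86 at *Tet2*, with counting errors (SE) of 0.69 to 1.98 points, against a median of 0.967 over the genes. Each estimate is a difference between separate libraries and can fall below 0. That of *Dnmt3b* did so with a counting error of 1.18 points, and causes of spread other than counting were not tested. The lowest unadjusted p of the members was that of *Tet3* (0.0191), with -3.68, -3.64 and 2.05 in young and 7.65, 5.02 and 0.68 percentage points in aged NSPCs, where the ages overlapped (adjusted p = 0.918 in limma).

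**Figure D3:**
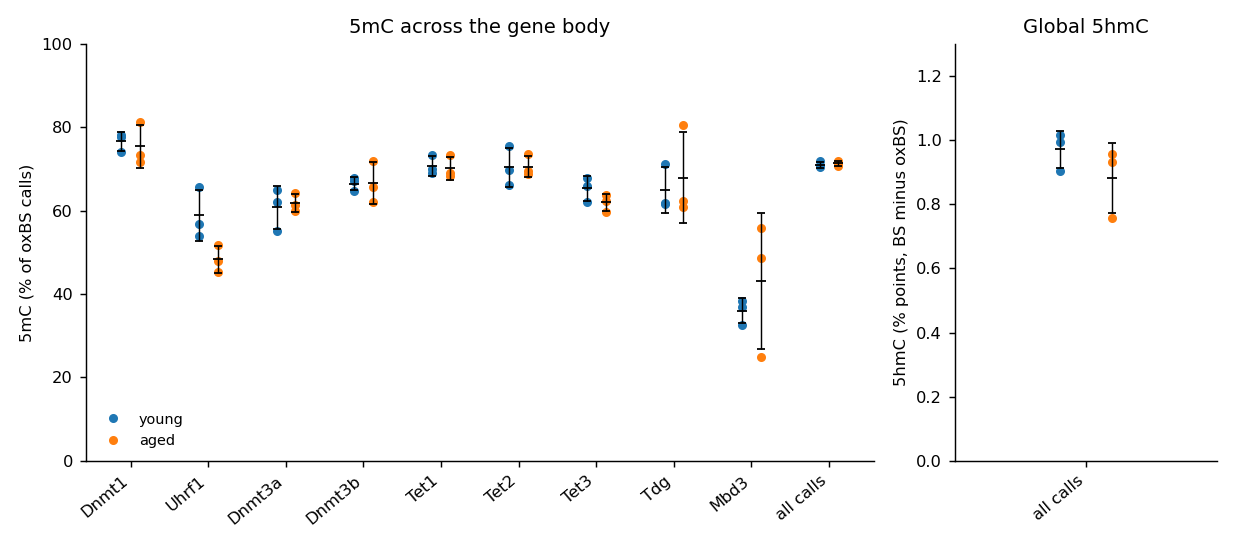
Left, 5mC across the body of each gene and over all calls (percent of oxBS calls, y axis) in 3 young adult (blue) and 3 aged (orange) libraries; right, global 5hmC (BS minus oxBS, percentage points, y axis); points are libraries and bars the mean and SD. The ages overlap except in *Uhrf1*, where the 3 aged libraries (45.2% to 51.8%) lie below the young adult ones. The share of *Uhrf1* calls near its almost unmethylated start differs between the libraries.

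The largest difference in RNA of these genes lay between the strains and not the ages. The comparison of 2 C57BL/10 with 6 C57BL/6J/Babr libraries, in a model with age and strain, was chosen after the values had been seen, and strain, facility and cohort cannot be told apart in it. C57BL/10 had a single library per age, so that the SE and p-values of this comparison rest mainly on the spread of the C57BL/6J/Babr libraries. Reads fell on 16779 (young adult) and 16554 (aged) genes in C57BL/10 and on 17225 to 18209 in the C57BL/6J/Babr libraries. The library with 17225 was the one with the fewest reads in total (16952486). The part of this library-wide difference in the strain differences was not tested. Of the 9 members 3 were lower in C57BL/10 at an adjusted p of 0.05 in limma, against 11.5% of 14828 genes in that direction and 29.7% in either. On this RPM scale the median gene was 0.17 (log2) higher in C57BL/10, and 61.2% of the calls were higher. Scaled by TMM in edgeR, the median was -0.0064 and 24.5% of the calls were higher, with 3 members called in that scaling also.

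*Tdg* had a log2 RPM between 6.35 and 6.66 in the 6 C57BL/6J/Babr libraries and of 3.62 (young adult) and 3.77 (aged) in C57BL/10. The groups were far apart, a log2 fold change of -2.82 (SE 0.090, limma adjusted p = 6.3e-09), or 7.05-fold lower, and of -2.99 with TMM. It was called in all 11 alternative settings. In reads these were 1541 to 3881 per C57BL/6J/Babr library and 334 and 336 in C57BL/10. Only 4.17% of the genes tested had a larger fall.

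The sequence of *Tdg* (chromosome 10, 82629828 to 82650799) bears on this value. Aligned to GRCm38, its longest transcript (3502 bases) had 4 near-identical matches elsewhere, each spanning about as many genomic as transcript bases and thus without introns, at chromosome 15, 82516256 to 82519281 (86.4% of the transcript, 98.6% identity), chromosome 7, 76243185 to 76246119 (83.8%, 99.3%), chromosome 10, 42052554 to 42055356 (80.1%, 99.3%), and chromosome 19, 33672278 to 33674036 (50.3%, 99.5%). The copy on chromosome 15 is the pseudogene *Tdg-ps*, in the RNA table as *Gm5806*. *Gm5806* had a log2 RPM between 5.34 and 5.67 in the 6 C57BL/6J/Babr libraries, with 804 to 1982 reads, and only 3 reads (young adult) and 1 read (aged) in C57BL/10. Together *Tdg* and *Gm5806* had 122 to 152 RPM in C57BL/6J/Babr and 12.4 (young adult) and 13.7 RPM (aged) in C57BL/10, so that the sum was lower too, by 10.6-fold of the means. *Hcfc2*, the gene next to *Tdg*, had a strain difference of 0.12 (SE 0.10, adjusted p = 0.388 in limma), and *Glt8d2*, which overlaps the end of *Tdg* on the other strand at a low level, of -0.59 (SE 0.43, adjusted p = 0.312). Reads of such copies can be counted to either gene or left out, so that the level of *Tdg* is uncertain in both strains, and the part of the copies in the difference was not tested.

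**Figure D4:**
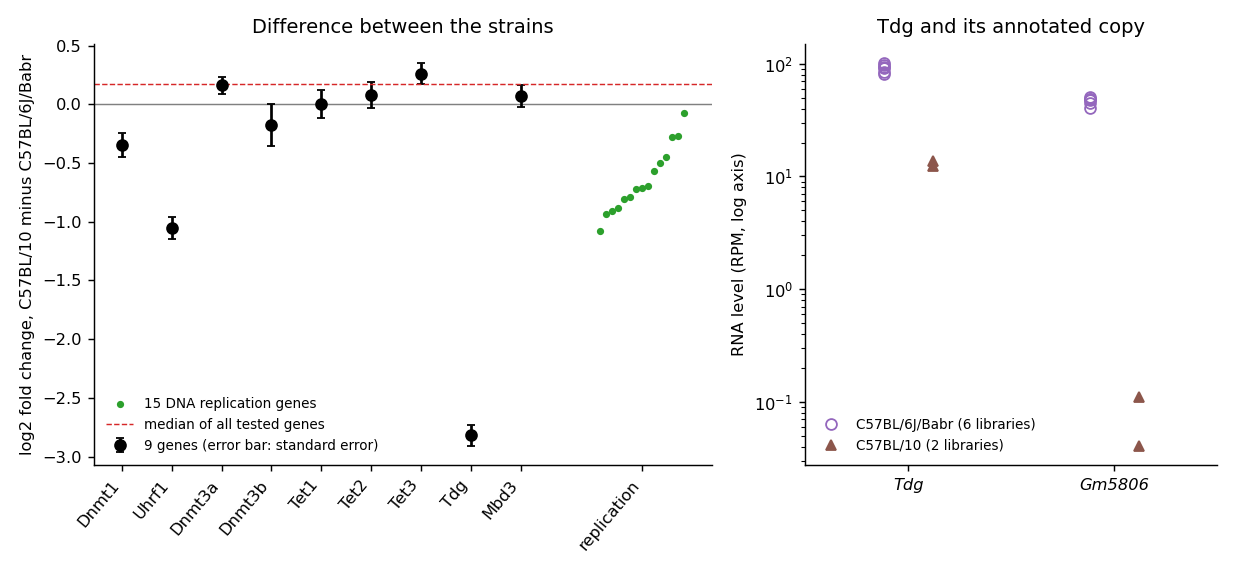
Left, the log2 fold change in RNA between the strains (C57BL/10 minus C57BL/6J/Babr, y axis) for the 9 genes (points, bars SE) and 15 DNA replication genes (green), with the median of all genes tested (dashed, 0.17); right, RPM on a log axis of *Tdg* and *Gm5806* in 6 C57BL/6J/Babr (circles) and 2 C57BL/10 (triangles) libraries. *Tdg* lies at -2.82, *Uhrf1* at -1.05 within the lower end of the replication genes, and *Gm5806* falls from over 40 RPM to 0.11 and 0.041.

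*Uhrf1* was the second member that differed. It had a log2 RPM between 5.69 and 5.95 in C57BL/6J/Babr and of 4.74 and 4.85 in C57BL/10, a log2 fold change of -1.05 (SE 0.094, limma adjusted p = 2.1e-05), or 2.07-fold lower. Its transcript of 3586 bases had a copy on chromosome X, 121334000 to 121336583 (71.9% of the transcript, 97.7% identity), which overlapped no gene of the RNA table, so that the level of *Uhrf1* and the size of its strain difference are uncertain too, and the part of the copy was not tested. *Tdg* and *Uhrf1* were the only members with a copy of more than 4% of the transcript, and *Tet1* and *Tet2* had only a short match each (286 and 324 bases). *Dnmt1*, with no such copy, had 6.61 and 7.02 in C57BL/10 and 6.99 to 7.29 in C57BL/6J/Babr, a log2 fold change of -0.35 (SE 0.10, limma adjusted p = 0.0345). The aged C57BL/10 library lay within the other strain's range for *Dnmt1*, and without the young adult C57BL/10 library the adjusted p was 0.456 and the log2 fold change -0.18.

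Genes of DNA replication, the phase in which *Dnmt1* and *Uhrf1* act, moved in the same comparison. Of 15 such genes 12 were lower in C57BL/10 at an adjusted p of 0.05 and 0 higher, against 11.5% of all genes lower and 29.7% in either direction, with a median log2 fold change of -0.71, including *Mcm5* (-0.93), a subunit of the replicative helicase, and the proliferation marker *Mki67* (-1.08), both picked after their values were seen. Their summed log2 RPM was 9.83 to 10.3 in the 6 C57BL/6J/Babr libraries and 9.21 and 9.44 in C57BL/10. Of the cell type markers, astrocyte genes were lower in 2 of 7 (*Gfap* at -0.70, limma adjusted p = 0.010, and *Aldoc* at -0.97, adjusted p = 0.0035) and higher in 1 (*Gja1* at 0.96, adjusted p = 0.0015). Of the oligodendrocyte lineage list only *Mbp* was lower (-3.27, limma adjusted p = 0.0056) and 0 were higher, with a list median of 0.16. At *Mbp* the 2 C57BL/10 libraries themselves differed by 2.17 in log2 RPM, aged minus young adult. Of the 8 NSPC markers 0 passed. Astrocyte markers summed to 10.80 to 11.20 in log2 RPM in the 6 C57BL/6J/Babr libraries and to 11.31 and 10.86 in C57BL/10, and those of the oligodendrocyte lineage to 10.38 to 10.64 and to 10.65 and 10.87. The part of the replication genes and of these markers in the differences of the members was not tested. In the other lists 4 of 10 partners of the methyltransferases were lower and 0 higher, of the base excision factors 3 of 16 were lower and 1 higher, of the genes of methyl donor supply 4 of 12 were lower and 2 higher, of the NuRD subunits 1 of 13 was lower and 2 higher, and of the readers 2 of 8 and of the TET cofactor genes 4 of 18 were higher and 0 lower. Over all 14828 genes 2697 were called higher on the RPM scale, and 630 with TMM. Among the listed genes *Ahcy*, which hydrolyses the S-adenosylhomocysteine left by methyl transfer, had a strain difference of -2.70 (limma adjusted p = 3.5e-08), picked after its value was seen. Copies were searched for the 9 members only, so that *Ahcy* and the other listed genes were not checked for them. The remaining 6 members had strain differences between -0.18 (*Dnmt3b*) and 0.26 (*Tet3*), and none passed the threshold. With TMM *Dnmt3a*, *Tet1*, *Tet2* and *Mbd3* had the opposite sign.

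Over all 8 libraries the gene most like each member in its log2 RPM was *Cep152* for *Dnmt1* (Pearson r = 0.992), *4930558J22Rik* for *Uhrf1* (0.997), *Ehmt2* for *Dnmt3a* (0.988), *Klf15* for *Dnmt3b* (0.948), *Csrnp3* for *Tet1* (0.990), *Rpe* for *Tet2* (0.972), *Plxna4* for *Tet3* (0.995), *Zc3h3* for *Tdg* (0.9995) and *Gtf3a* for *Mbd3* (0.958). The 8 libraries share strain and depth differences, and 1305 genes had an r above 0.9 with *Tdg* and 1312 with *Uhrf1*, the members that separated the strains, against 5 with *Dnmt3b*. The libraries held 16952486 to 41053972 reads by RNA and 13616283 to 30400033 calls by BS and oxBS, at a mean of 1.20 to 1.48 calls per covered cytosine.

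The cells were checked against marker genes. All 8 NSPC markers were expressed, with a summed log2 RPM of 12.7 to 13.0 in young and 12.6 to 12.9 in aged NSPCs. Those of the astrocyte list summed to 10.963 to 11.20 in young and 10.80 to 10.955 in aged NSPCs, ranges that nearly touched. Taken singly, 1 of the 7 astrocyte genes did not overlap between the ages, against 5.2% of all genes tested. A lower mean in aged NSPCs was seen in 6 of the 7, with *Gfap* at -0.54 (unadjusted p = 0.0117 in limma) and *Aldoc* at -0.44 (unadjusted p = 0.0485 in limma). Those of the oligodendrocyte lineage summed to 10.4 to 10.6 and 10.5 to 10.6, while ependymal markers summed to 4.98 to 6.69, neuronal ones to 3.02 to 3.79, microglial ones to 2.36 to 2.77, pericyte ones to at most 0.10 and endothelial ones to at most -1.32 over these 6 libraries. No marker gene passed an adjusted p of 0.05 between the ages. The part of these marker genes in the members' values was not tested.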

How the data were processed

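The 9 genes and the gene lists were chosen with earlier results of these data known. The authors deposited RNA as log2 RPM per gene, ChIP as log2 RPM per promoter window (1 value per age over the replicates), and BS and oxBS sequencing as a percent with methylated and unmethylated read counts per cytosine. The submitters' processing notes name GRCm38, Trim Galore 0.4 and 0.3.7, Bowtie2 2.2.5, STAR 2.3.0 and Bismark 0.12.5.

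RNA was tested with limma 3.58.1 on log2 RPM across all genes with a mean of at least -2 and p-values adjusted by Benjamini-Hochberg. All values of up to 1000 reads came out as whole reads within 0.02 reads (a gene without reads stands at 0.9 reads in the files and was set to 0), so edgeR 4.0.16 (quasi-likelihood, TMM) and DESeq2 1.42.0 were run on the recovered counts. Calls were summed per region, with at least 10 per library for 5mC and 100 for 5hmC, and tested with a quasi-binomial model whose dispersion was moderated across regions (5hmC with limma), with 10 percentage points as the smallest difference called for 5mC. The limma, edgeR and quasi-binomial models were run on simulated data with planted changes larger than any age difference of the members in RNA or 5mC. They were not tested on changes of the size seen here. Transcripts were aligned to GRCm38 with blastn 2.17.0 (at least 200 bases, 90% identity).

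Deviations from the mean of each age correlated between RNA libraries of the same replicate number (r = 0.659, 0.179 and 0.724 over 14858 genes), each above 0.1, so that the numbers, which the labels give, were taken to pair the derivations in RNA. In gene bodies with at least 500 calls they did not reach 0.1 (0.066 to 0.081 in oxBS and 0.012 to 0.045 in BS). Named genes were the members, the gene most like each, and the 2 genes of lowest p in each list, of which 1 is not reported here. *Gm5806*, *Hcfc2*, *Glt8d2*, *Mcm5*, *Mki67*, *Ahcy*, *Gfap*, *Aldoc*, *Gja1*, *Mbp* and the comparison of the strains were added after their values had been seen. Alternatives were other scalings, filters, call minimums, the replicate block and leaving out each library. RNA libraries were made without strand, so overlapping genes share reads.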

Additional observations from a re-analysis of the deposited data

Results flagged for a closer look

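*Uhrf1* was lower in the aged library of all 3 replicate numbers in C57BL/6J/Babr and higher in the aged C57BL/10 library, by 0.107 in log2 RPM, while the replicate pairs differed by -0.067, -0.049 and -0.049. The difference between the strains in this age effect was not tested, since C57BL/10 had a single library per age.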

How the results depend on the processing

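Of 696 values recomputed under alternatives, 615 kept their direction and side of the threshold, and none of the 9 genes was called between the ages in any assay under any of them. The 615 include values whose direction was fixed in advance, so that the count does not measure robustness. The replicate block and the filters cannot move an RNA log2 fold change between the ages, and the call minimums cannot move a 5mC difference. Over all genes the age comparison in RNA called 0 genes, 74 with the replicate block and 4 with DESeq2. By replicate block the exact p of the global differences, which pairing cannot move (0.313 points in 5mC, 0.225 in BS and -0.0884 in 5hmC), was 0.25, 0.25 and 0.5 against 0.5, 0.7 and 0.3, with 0.25 the smallest it can give. In limma and the quasi-binomial model the block changed no call of the 9 genes. Without a call, the sign of promoter 5mC at *Tdg* (0.828 points) and of gene body 5mC at *Tet2* (0.149) turned. H3K4me3 windows past the rule numbered 55, and 666 with Input subtracted, 5 at 2-fold and 149 over all windows, and H3K27me3 windows 388, 39 at 2-fold and 941 over all windows. With Input subtracted H3K4me3 turned at *Tet1* (-0.24) and *Tet2* (-0.044), and with quantile normalization at *Tet1* (-0.15), *Tet2* (-0.0069) and *Tet3* (-0.020), as did H3K27me3 at *Uhrf1* (0.11). The cause was not tested.

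Between the strains edgeR called 2572 genes, DESeq2 2868 and limma 4405, and 1446 to 4629 with a library left out (1446 without the young adult and 1882 without the aged C57BL/10 library). *Dnmt1* lost its call without young adult replicate 2, aged replicate 1 or 2, or the young adult C57BL/10 library (adjusted p 0.0551 to 0.456, with log2 fold changes of -0.33, -0.33, -0.35 and -0.18), and *Tet3* gained one without young adult replicate 1 (adjusted p = 0.0474). Uncalled signs turned with edgeR at *Dnmt3a* (-0.010), *Tet1* (-0.17), *Tet2* (-0.099) and *Mbd3* (-0.10), with DESeq2 at *Tet1* (-0.16), *Tet2* (-0.088) and *Mbd3* (-0.089), and with quantile normalization at *Dnmt3b* (0.11). With a library left out they ranged from -0.038 to 0.048 for *Tet1*, -0.035 to 0.19 for *Tet2* and -0.076 to 0.22 for *Mbd3*.

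With a library left out the age differences in RNA ranged from -0.12 to 0.0098 for *Uhrf1*, -0.049 to 0.14 for *Tet1*, -0.050 to 0.13 for *Tet2*, -0.069 to 0.043 for *Mbd3* (0.056 over 8 libraries with strain), 0.0074 to 0.14 for *Dnmt1*, 0.023 to 0.091 for *Dnmt3a*, 0.13 to 0.29 for *Dnmt3b*, 0.033 to 0.14 for *Tet3* and 0.029 to 0.16 for *Tdg*. The global BS difference ranged from -0.0862 to 0.583 points, global 5mC from 0.0269 to 0.705 and global 5hmC from -0.126 to -0.0262. Promoter 5mC ranged from -2.17 to 1.97 points at *Dnmt3a*, -3.11 to 0.786 at *Tet2*, -5.97 to 4.96 at *Tdg* and -2.18 to 2.16 at *Mbd3*. Gene body 5mC ranged from -4.24 to -0.235 at *Dnmt1*, -12.5 to -7.36 at *Uhrf1*, -5.27 to -2.17 at *Tet3*, -1.68 to 4.10 at *Dnmt3a*, -2.10 to 2.19 at *Dnmt3b*, -1.85 to 0.393 at *Tet1*, -2.52 to 2.35 at *Tet2*, -2.97 to 7.30 at *Tdg* and -0.520 to 16.2 at *Mbd3*, and gene body 5hmC from -1.21 to 4.56 at *Dnmt1*, -6.40 to 0.163 at *Dnmt3a* and -9.02 to 3.32 at *Tdg*.

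In BS calls promoter differences turned at *Dnmt3a* (0.721), *Tet1* (0.0605), *Tet2* (2.31) and *Tdg* (0.272), and gene body differences at *Dnmt3a* (-1.42), *Tet1* (2.91), *Tet3* (2.56) and *Mbd3* (-3.39). Within 500 bp of the start they turned at *Tet1* (0.408), *Tet2* (0.380) and *Tet3* (-1.10), and *Tdg* had too few calls at the start used for it (82630667). Around the first annotated base of *Tdg* (82629828) 1 of 265 young adult and 0 of 197 aged calls were methylated. The depth of 1.20 to 1.48 calls per covered cytosine limits the methylation values.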
